A study of Arabidopsis thaliana with 16 samples.

Results

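In Arabidopsis thaliana leaves, 96 of 34262 listed genes stood higher after a jasmonic acid (JA) spray in plants of one seedling history and lower after the same spray in plants of the other. For 79 of them the level after challenge was lower in plants sprayed with water as seedlings and higher in plants sprayed with JA as seedlings. For the other 17 the directions were exchanged. The 79 genes included regulators of the salicylic acid (SA) pathway, 7 WRKY transcription factors and chaperones of the endoplasmic reticulum (ER). The 17 genes included the cold and drought gene RD29A and the flavonol synthase gene FLS1.

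All plants were wild-type Col-0. JA_JA plants received 1 mM JA at 2 weeks and 0.1 mM JA at 5 weeks. JA_W plants received 1 mM JA at 2 weeks and the control solution at 5 weeks. W_JA plants received the control solution at 2 weeks and 0.1 mM JA at 5 weeks. W_W plants received the control solution both times. Control solutions were water with as much ethanol as the matching JA solution, and every solution held 0.02% Silwet, so all groups were exposed to both. Rosette leaves were taken 4 h after the second spray, 8 leaves of 2 plants being pooled into each library, with 4 replicates per group. A difference in growth place, handling or infection that followed the seedling treatment cannot be told apart from that treatment, and only 1 ecotype was used.

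Members were chosen on the group means of the deposited CPM (the count of a gene divided by the library's total and scaled to 1000000 reads) in all 16 libraries. The largest of the 4 group means had to be at least 2.5 CPM, which 16097 genes met. A value of 0.5 CPM was added to each mean before ratios were taken. Genes with W_JA/W_W of at least 1.5 and JA_JA/JA_W of at most 0.67 form the 17-gene set, and genes with W_JA/W_W of at most 0.67 and JA_JA/JA_W of at least 1.5 form the 79-gene set. They made up 0.106% and 0.491% of the 16097 genes. Both challenge ratios were used in this choice, so the members' responses over all 4 replicates are given as a description with no test.

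JA is made from plastid lipids after wounding and during attack by chewing insects and necrotrophic fungi. Its active conjugate removes JAZ repressors, which frees MYC transcription factors to switch on defence genes. SA is the hormone of defence against biotrophic pathogens, its signal passes through NPR1 and its relatives, and the SA and JA pathways are known to restrain each other in leaves. BIP and ERDJ3 proteins fold secreted proteins in the ER lumen, among them proteins of immunity.

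Library totals ran from 32190193 to 34319939 counted reads (median 34159442), so 1 read was about 0.0293 CPM. The summed level of 11 mesophyll photosynthesis markers was 60700 to 71700 CPM in JA_JA, 63100 to 73500 CPM in JA_W, 44100 to 58500 CPM in W_JA and 48900 to 64600 CPM in W_W, so JA_JA lay above W_JA with no overlap. The 6 dividing-cell markers summed to 4.3 to 9.17 CPM in JA_JA, 6.44 to 8.36 CPM in JA_W, 3.7 to 3.88 CPM in W_JA and 3.01 to 5.93 CPM in W_W, higher in JA-history libraries within each challenge. No marker of these lists, or of guard cells, phloem or trichomes and epidermis, was at 0 in any group. The 4 trichome and epidermis markers summed to 133 to 156 CPM in JA_JA against 211 to 281 CPM in JA_W. They summed to 107 to 164 CPM in W_JA against 169 to 229 CPM in W_W, so both sums were lower after challenge. Taken singly, 3 of the 4 fell in JA_JA against JA_W (median log2 -0.72, edgeR), beside 16.5% of all genes. In W_JA against W_W 0 fell (median log2 -0.10), beside 12.9%. The part of all marker lists in the results was not tested. In whole leaves, fewer cells of a type and less RNA per cell cannot be told apart.

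Opposite responses were rare beside shared ones. Of the 844 genes with a W_JA/W_W ratio of at least 1.5, 539 (63.9%) also had a JA_JA/JA_W ratio of at least 1.5, 288 (34.1%) lay between the thresholds and 17 (2.01%) were at or under 0.67. Of the 1688 genes with W_JA/W_W at or under 0.67, 563 (33.4%) were also at or under 0.67 in JA-history plants, 1046 (62%) lay between and 79 (4.68%) were at or over 1.5. The listed genes of JA synthesis, turnover, repression and MYC output were not among them. Of 35 tested, 31 rose in W_JA against W_W and 30 in JA_JA against JA_W, and none fell in either (edgeR, adjusted p under 0.05). None of the 33 at the level filter was a member.

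**Figure D1:**
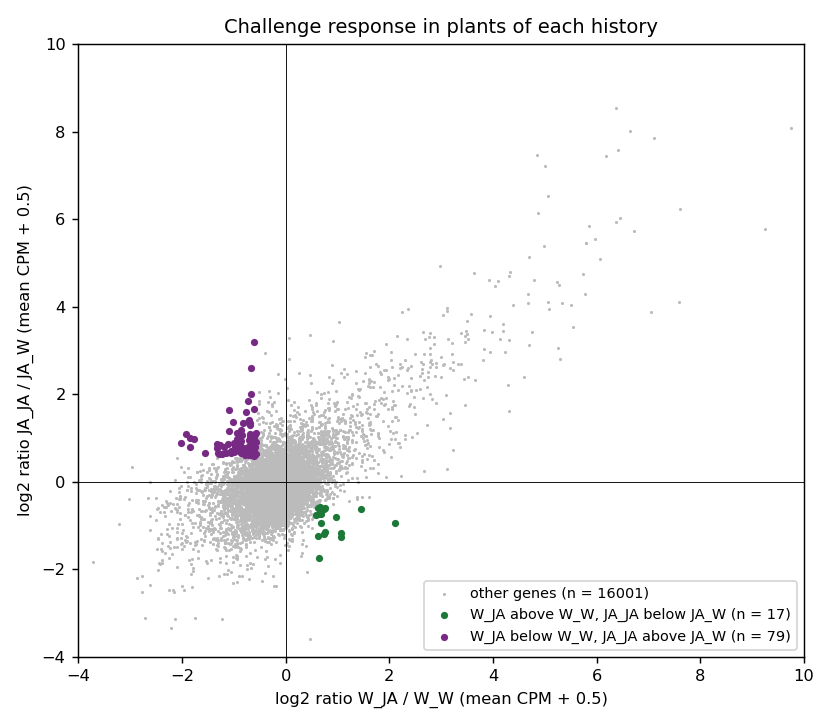
Challenge response in water-history plants (x axis, log2 W_JA/W_W) and in JA-history plants (y axis, log2 JA_JA/JA_W) of 16097 genes, from group means plus 0.5 CPM; each point is 1 gene. The 17 members (green) lie in the lower right, the 79 members (purple) in the upper left, and the genes with the largest responses lie in the upper right, where both histories respond upward.

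The median log2 W_JA/W_W was -0.80 in the 79-gene set and 0.73 in the 17-gene set, beside -0.11 over the 16097 genes. The median log2 JA_JA/JA_W was 0.83 in the 79-gene set and -0.81 in the 17-gene set, beside -0.10 over the 16097 genes. Deposited CPM are divided by library totals only. With composition scaling (TMM) the medians of the 16097 genes moved to 0 and -0.02, those of the 79-gene set to -0.67 and 0.92, and those of the 17-gene set to 0.85 and -0.72. On the TMM scale the values nearest 0 were -0.45 and 0.66 in the 79-gene set and 0.70 and -0.49 in the 17-gene set, so no member changed direction.

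The 79-gene set had 1 shape: in all 79 the mean was highest in W_W and lowest in JA_W. In 71 the order was W_W, W_JA, JA_JA, JA_W, and in the other 8 JA_JA stood above W_JA. The median log2 JA_W/W_W was -2.88, beside -0.09 over the 16097 genes, and the median log2 JA_JA/W_JA was -1.02, beside -0.10. The gap between histories was smaller after challenge in 79 of 79 members and in 15 of 17 genes of the other set. The rule fixes the direction in which this difference moves, so the counts are a description. The choice also favours a wide gap between JA_W and W_W, since both are denominators in the rule. The medians between histories are therefore a description too. Of the 17 genes, 10 had the order JA_W, JA_JA, W_JA, W_W, 5 the order JA_W, W_JA, JA_JA, W_W, and 2 (LTP4 and CYP707A2) the order W_JA, JA_W, W_W, JA_JA. Their median log2 JA_W/W_W was 1.71 and their median log2 JA_JA/W_JA was 0.09.

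**Figure D2:**
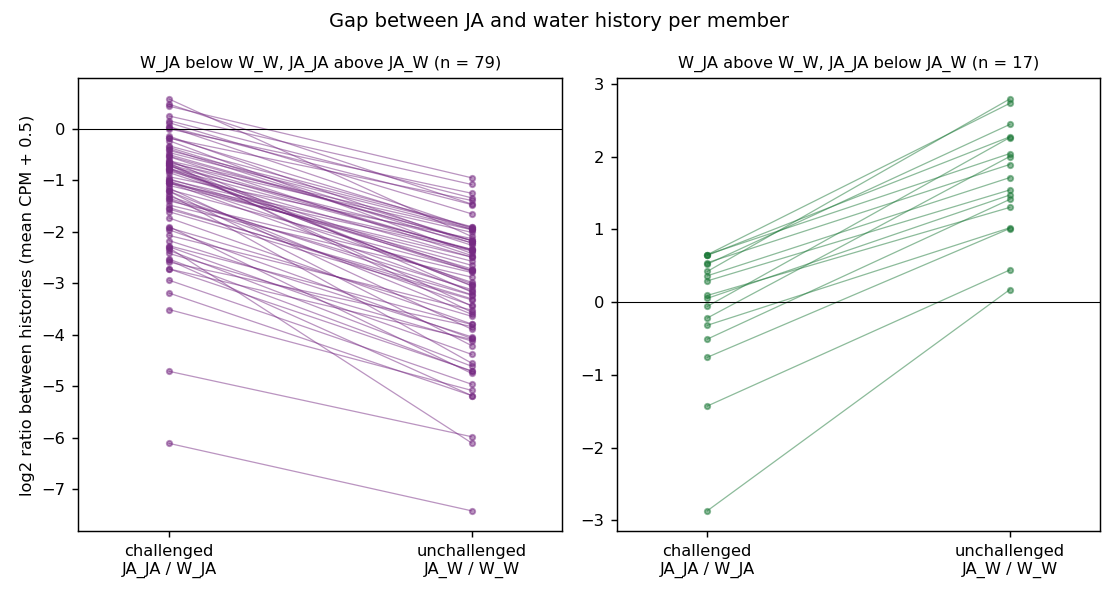
Log2 ratio of JA-history to water-history means (plus 0.5 CPM) for each member after challenge (left, JA_JA/W_JA) and without it (right, JA_W/W_W); each line joins the 2 values of 1 gene. In the 79-gene set every line is lower without challenge (medians -1.02 and -2.88), and in the 17-gene set every line is higher without challenge (medians 0.09 and 1.71).

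Promoter sequences are shown for 4 members whose hormone or stress background is described below. They were picked after the motif matches had been seen. Each is the 250 bases before the annotated gene start, 5′ to 3′ on the gene's strand, from RefSeq on build TAIR10.1. Capitals mark letters of a motif on either strand: the W-box (TTGACC or TTGACT), the site of WRKY factors; the TGA core (TGACG), the site of the TGA factors that partner NPR1; and the DRE core (GCCGAC or ACCGAC), the site of DREB/CBF factors. A run TGACGTCA holds the TGA core on both strands, so its letters are shared by 2 matches. NIMIN2 lies at chr3:9471040-9471289 on the minus strand, WRKY70 at chr3:20910624-20910873 on the minus strand, DLO1 at chr4:6490767-6491016 on the plus strand and RD29A at chr5:21240467-21240716 on the plus strand.
NIMIN2: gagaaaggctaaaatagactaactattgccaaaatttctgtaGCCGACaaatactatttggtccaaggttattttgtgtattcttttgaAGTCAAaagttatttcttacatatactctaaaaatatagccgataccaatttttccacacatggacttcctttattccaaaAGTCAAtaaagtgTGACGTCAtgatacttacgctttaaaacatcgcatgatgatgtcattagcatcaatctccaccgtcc
WRKY70: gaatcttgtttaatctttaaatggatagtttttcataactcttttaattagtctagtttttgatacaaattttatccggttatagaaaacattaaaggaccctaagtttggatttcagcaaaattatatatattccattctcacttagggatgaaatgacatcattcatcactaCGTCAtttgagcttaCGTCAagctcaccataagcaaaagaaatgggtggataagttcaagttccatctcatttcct
DLO1: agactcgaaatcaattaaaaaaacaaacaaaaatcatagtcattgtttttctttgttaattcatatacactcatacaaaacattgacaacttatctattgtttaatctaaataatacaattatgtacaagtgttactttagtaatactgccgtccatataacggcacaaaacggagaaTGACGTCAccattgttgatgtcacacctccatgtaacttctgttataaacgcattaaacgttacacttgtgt
RD29A: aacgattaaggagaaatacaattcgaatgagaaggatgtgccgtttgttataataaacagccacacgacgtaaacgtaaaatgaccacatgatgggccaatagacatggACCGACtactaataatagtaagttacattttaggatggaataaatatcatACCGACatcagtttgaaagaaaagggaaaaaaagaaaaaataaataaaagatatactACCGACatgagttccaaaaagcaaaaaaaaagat
The TGA core was in 20 of 79 such promoters (25.3%) of the 79-gene set and 4 of 17 (23.5%) of the 17-gene set, beside 19.6% of 16060 promoters of genes past the level filter. The W-box was in 26 (32.9%) and 6 (35.3%), beside 28.2%, and the DRE core in 6 (7.59%) and 3 (17.6%), beside 8.17%. The letters AAATATCT, a part of the longer evening element, were in 6 (7.59%) and 4 (23.5%), beside 5.17%. Not every match holds the whole element. The G-box CACGTG was in 8 (10.1%) and 2 (11.8%), beside 7.66%, and the GCC-box GCCGCC in 2 (2.53%) and 0, beside 2.04%. These are matches of letters in a short window and were not tested.

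Members of the SA list included regulators that act with NPR1. NIMIN1, a small protein that binds NPR1, was at 1.06, 1.05, 0.235 and 1.25 CPM in JA_JA and at 0.117, 0.0874, 0.262 and 0.175 CPM in JA_W, and at 1.96, 2.72, 3.54 and 2.72 CPM in W_JA and at 11.8, 12.5, 13.2 and 9.61 CPM in W_W. Challenged and unchallenged libraries were apart in water-history plants, where W_JA/W_W was 0.264, while in JA-history plants JA_JA replicate 3 lay within the JA_W range and JA_JA/JA_W was 2.12. The JA_W level rested on 22 reads over 4 libraries. NIMIN2, its relative, was at 1.52, 1.81, 0.265 and 2.42 CPM in JA_JA and at 0.613, 0.466, 0.35 and 0.584 CPM in JA_W, and at 4.6, 8.94, 7.97 and 6.52 CPM in W_JA and at 26.5, 31.6, 31.9 and 15.8 CPM in W_W. Again JA_JA replicate 3 was the low library, here under all JA_W libraries, and the water-history groups did not overlap. NPR3, an SA receptor that dampens NPR1-driven defence, was at 27.1, 20.7, 19.2 and 21.3 CPM in JA_JA and at 11.4, 9.24, 9.53 and 10.4 CPM in JA_W, and at 33.9, 37.1, 38.5 and 33.7 CPM in W_JA and at 58.9, 56, 62.6 and 38.9 CPM in W_W. Neither pair of groups overlapped for NPR3.

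WRKY70, a transcription factor that promotes SA-dependent and holds back JA-dependent gene expression, had the largest JA-history ratio among these genes, 6.08. Its level was 81.9, 69.2, 26.5 and 83.1 CPM in JA_JA and 7.42, 8.31, 9.76 and 15.7 CPM in JA_W, and 142, 177, 157 and 157 CPM in W_JA and 297, 248, 284 and 181 CPM in W_W. All JA_JA libraries were above all JA_W libraries, and all W_JA libraries below all W_W libraries. WRKY38, an NPR1-dependent repressor of defence, averaged 0.717 ± 0.623 CPM in JA_JA and 0.175 ± 0.126 CPM in JA_W, and 6.52 ± 0.682 CPM in W_JA and 17.2 ± 1.91 CPM in W_W (SD, n = 4 each).

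The SA list also gave enzymes that inactivate SA. DMR6 (SA 5-hydroxylase) averaged 46.6 ± 25.5 CPM in JA_JA and 18.2 ± 5.61 CPM in JA_W, and 361 ± 82.3 CPM in W_JA and 579 ± 180 CPM in W_W (SD, n = 4 each). DLO1 (SA 3-hydroxylase) averaged 1.58 ± 0.834 CPM in JA_JA and 0.78 ± 0.501 CPM in JA_W, and 143 ± 106 CPM in W_JA and 218 ± 71.8 CPM in W_W, with overlap between challenged and unchallenged libraries in both histories. The glucosyltransferase UGT74F2 was at 87.6, 76.7, 81 and 163 CPM in JA_JA and at 84.4, 34.9, 41.7 and 52.9 CPM in JA_W. UGT76B1, which glucosylates SA and isoleucic acid, was at 7.77, 2.45, 3.86 and 27 CPM in JA_JA and at 12.6, 1.86, 5.04 and 3.39 CPM in JA_W. Both had their highest JA_JA value in replicate 4 and their highest JA_W value in replicate 1. Without JA_JA replicate 4 the log2 JA_JA/JA_W of UGT76B1 was -0.26.

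In all, 9 of the 33 SA genes at the level filter were members (27.3%), all in the 79-gene set, beside 0.491% of all genes; the list was drawn up with earlier results of these data known. Over the whole list 3 genes rose and 9 fell in W_JA against W_W (median log2 -0.32), and 16 rose and 2 fell in JA_JA against JA_W (median 1.05), where the medians of all 19224 tested genes were 0 and -0.01. The edgeR background, the same for every list and family here, was 13.9% of genes called higher and 12.9% called lower in water-history plants. In JA-history plants it was 15.4% and 16.5%. Genes outside the member set did not share 1 pattern, as examples picked by no set rule show. GRXS13, a glutaredoxin, fell by 3.02 on the log2 scale in water-history plants (adjusted p = 1.04e-07) and had a log2 change of 1.06 in JA-history plants that did not pass (adjusted p = 0.104). EDS5, the SA exporter of the chloroplast, rose in both histories, by 0.86 and 2.28. WRKY53 fell in both, by 1.32 on the log2 scale in water-history plants and by 1.09 in JA-history plants. ICS1, the enzyme of the main SA route, averaged 22.2 CPM in JA_JA, 18.4 CPM in JA_W, 72.9 CPM in W_JA and 106 CPM in W_W, and neither challenge response passed. PR1, the usual SA marker, averaged 0.253 CPM in JA_JA, 0.0511 CPM in JA_W, 531 CPM in W_JA and 542 CPM in W_W. PR1 was thus far lower in JA-history libraries than in water-history libraries, with no challenge response that passed (adjusted p = 0.355 in JA-history plants and 0.933 in water-history plants, edgeR).

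WRKY factors were 7 members of the 45 at the level filter (15.6%), beside 0.491% of all genes. Of 52 tested WRKY genes, 5 rose and 22 fell in W_JA against W_W, and 14 rose and 6 fell in JA_JA against JA_W. WRKY18, a factor that acts with WRKY40 in immune gene control, was at 20.7, 13.9, 14.2 and 22 CPM in JA_JA and at 9.52, 5.04, 5.54 and 5.43 CPM in JA_W, and at 33.1, 34.3, 41.3 and 40 CPM in W_JA and at 57.5, 58.2, 64.9 and 62.1 CPM in W_W. Its groups did not overlap in either history. WRKY40 was at 10.5, 8.65, 9.51 and 15.1 CPM in JA_JA and at 14.6, 1.72, 1.66 and 3.33 CPM in JA_W, and at 16.8, 22.4, 18.5 and 14.6 CPM in W_JA and at 54.8, 87.3, 68.7 and 40.3 CPM in W_W. The water-history groups of WRKY40 did not overlap, but JA_W replicate 1 lay among the JA_JA libraries. WRKY39, WRKY45 and WRKY51 were the other members, with JA_JA/JA_W ratios of 1.63, 1.93 and 1.78 and W_JA/W_W ratios of 0.584, 0.609 and 0.417.

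The ER list gave 3 members of 15 genes at the level filter (20%), beside 0.491% of all genes. They were BIP2, BIP1 and ERDJ3B, all in the 79-gene set. BIP2, an HSP70 of the ER lumen, was at 98.4, 107, 87.7 and 104 CPM in JA_JA and at 49.5, 60.7, 57.5 and 65.2 CPM in JA_W, and at 154, 322, 193 and 235 CPM in W_JA and at 523, 370, 491 and 189 CPM in W_W. The JA-history groups were apart, and in water-history plants W_W replicate 4 fell inside the W_JA range. BIP1 averaged 156 ± 17.6 CPM in JA_JA and 98.4 ± 5.83 CPM in JA_W, and 311 ± 84.7 CPM in W_JA and 500 ± 173 CPM in W_W (SD, n = 4 each). BIP1 and BIP2 are nearly identical in sequence, so the split of 50 bp reads between them is uncertain. ERDJ3B, a co-chaperone of BIP, averaged 72.8 ± 8.33 CPM in JA_JA and 43.8 ± 3.25 CPM in JA_W, and 157 ± 43 CPM in W_JA and 249 ± 94.2 CPM in W_W (SD, n = 4 each). TIN1, a gene induced by the ER stress agent tunicamycin, was at 6.01, 5.87, 4.44 and 5.01 CPM in JA_JA and at 2.25, 1.49, 1.49 and 1.84 CPM in JA_W, and at 11.6, 17, 8.75 and 14.6 CPM in W_JA and at 37.3, 26.6, 31.6 and 12.4 CPM in W_W. Again W_W replicate 4 was the lowest of its group. Of 15 ER folding and secretion genes, 0 rose and 2 fell in W_JA against W_W (median log2 -0.40), and 8 rose and 0 fell in JA_JA against JA_W (median 0.75). The 3 list members past both folds stayed past them in JA-history plants without JA_W replicate 1, without JA_JA replicate 4, and without both. BIP3, the most stress-inducible BIP, fell by 1.55 on the log2 scale in water-history plants (adjusted p = 0.0159) and had a log2 change of -1.71 in JA-history plants (adjusted p = 0.137).

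Smaller groups contributed 1 or 2 members each. SEN1, a gene induced by darkness and senescence, averaged 2.83 ± 0.83 CPM in JA_JA and 0.554 ± 0.033 CPM in JA_W, and 5.16 ± 2 CPM in W_JA and 8.14 ± 3.05 CPM in W_W (SD, n = 4 each). NAP, a NAC factor of leaf senescence, averaged 5.16 ± 0.742 CPM in JA_JA and 3.09 ± 0.708 CPM in JA_W, and 11 ± 0.977 CPM in W_JA and 27.8 ± 5.28 CPM in W_W (SD, n = 4 each). The groups of NAP did not overlap in either history. SEN1 and NAP were 2 of 9 senescence genes at the level filter, and TCH3 and WRKY40 were 2 of 7 touch and early wound genes. MPK11, a MAP kinase of early immune signalling, was 1 of 20 genes of pattern recognition. Of all genes at the level filter, 0.491% were in the 79-gene set. No member came from the lists of aliphatic or indole glucosinolate synthesis, the circadian clock or the ERF branch of defence.

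The member of the 79-gene set with the largest smaller response was AT4G27450, annotated as an aluminum induced protein. It was at 11.9, 6.22, 7.77 and 5.13 CPM in JA_JA and at 3.3, 1.52, 2.19 and 1.61 CPM in JA_W, and at 22.7, 16.1, 14.4 and 17.9 CPM in W_JA and at 66.3, 29.1, 30 and 29.6 CPM in W_W. Neither pair of groups overlapped, and W_W replicate 1 was far above the other W_W libraries. HIR2, a membrane protein of the SPFH family, averaged 20.9 ± 12.7 CPM in JA_JA and 9.06 ± 6.07 CPM in JA_W, and 109 ± 22.8 CPM in W_JA and 232 ± 53.6 CPM in W_W (SD, n = 4 each). PGL1, a 6-phosphogluconolactonase, was at 2.73, 2.63, 3.06 and 2.36 CPM in JA_JA and at 1.99, 0.525, 0.845 and 1.14 CPM in JA_W, and at 4.41, 3.52, 4.51 and 4.09 CPM in W_JA and at 8.11, 8.8, 7.44 and 9.37 CPM in W_W, with no overlap in either history.

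Some further members are named after their values were seen. LURP1, a gene required for full resistance to an oomycete, had the largest JA_JA/JA_W ratio of all members, 9.11. Its JA_JA libraries held 237, 37.4, 20.6 and 230 CPM and its JA_W libraries 5.78, 5.45, 9.91 and 34.7 CPM, against 560, 761, 530 and 755 CPM in W_JA and 1339, 922, 1069 and 629 CPM in W_W. Replicates 1 and 4 of JA_JA were high and replicates 2 and 3 low, and 1 JA_W library overlapped them. AT3G15450, like AT4G27450 an annotated aluminum induced protein, was 1 of the 8 members with JA_JA above W_JA. It averaged 20.5 ± 4.43 CPM in JA_JA and 4.72 ± 0.718 CPM in JA_W, and 13.5 ± 5.51 CPM in W_JA and 21.7 ± 5.77 CPM in W_W (SD, n = 4 each). TPS11, a trehalose phosphate synthase-like protein, averaged 29.4 ± 3.25 CPM in JA_JA and 14 ± 2.18 CPM in JA_W, and 46 ± 3.18 CPM in W_JA and 74.1 ± 15.9 CPM in W_W (SD, n = 4 each).

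**Figure D3:**
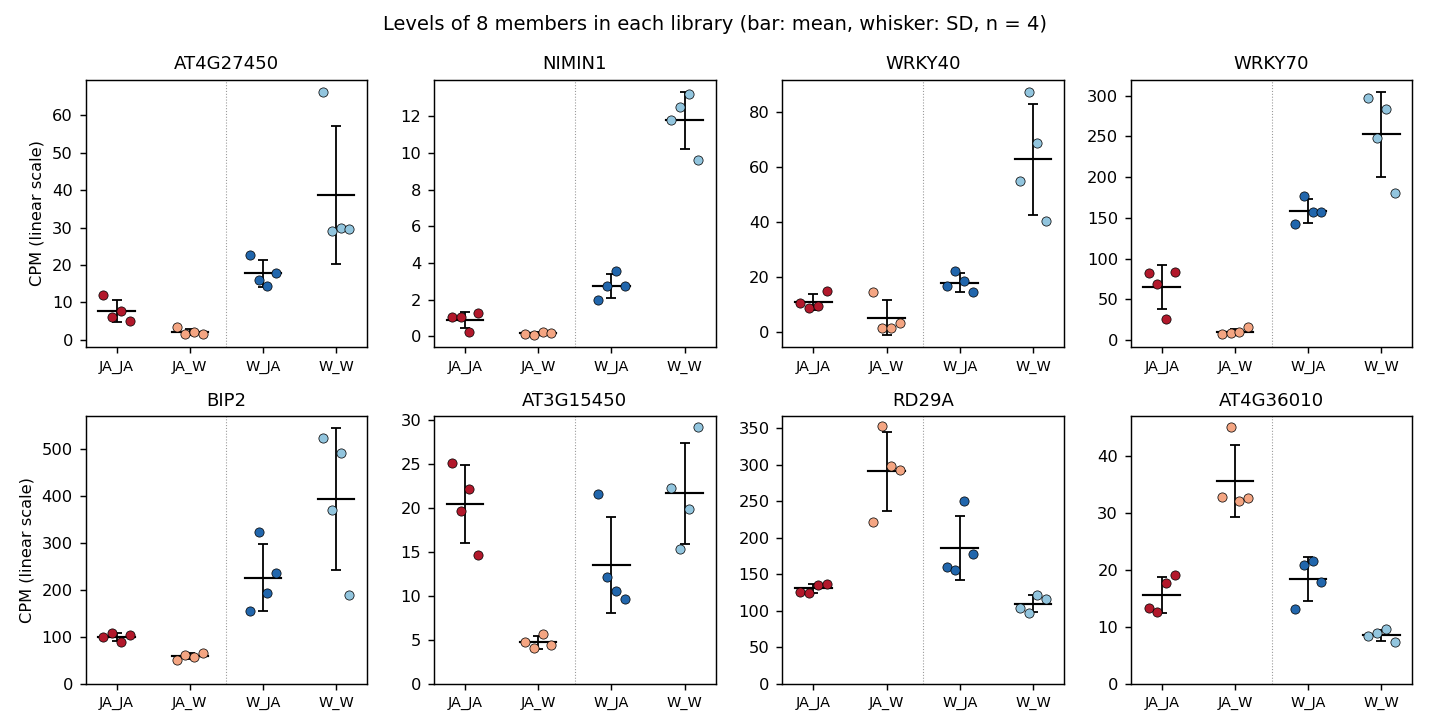
Deposited CPM (y axis, linear, from 0 upward) of 8 members in each library; points are the 4 replicates of JA_JA, JA_W, W_JA and W_W, bars are means and whiskers SD. WRKY70 averages 65.2 CPM in JA_JA against 10.3 CPM in JA_W and 158 CPM in W_JA against 253 CPM in W_W, while RD29A averages 131 CPM against 291 CPM and 186 CPM against 109 CPM in the same pairs.

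In the 17-gene set the responses ran the other way. AT4G34550, an F-box protein, was at 4.6, 4.79, 5.42 and 4.65 CPM in JA_JA and at 10.5, 16.1, 12.4 and 10.2 CPM in JA_W, and at 4.57, 4.38, 6.63 and 4.8 CPM in W_JA and at 1.49, 2.4, 2.25 and 2.57 CPM in W_W. AT4G36010, a thaumatin-like protein, was at 13.2, 12.6, 17.6 and 19 CPM in JA_JA and at 32.7, 45, 32 and 32.6 CPM in JA_W, and at 13.1, 20.8, 21.5 and 17.9 CPM in W_JA and at 8.29, 8.86, 9.51 and 7.31 CPM in W_W. For both genes the 2 challenged groups lay at like levels, between a high JA_W and a low W_W, and no pair overlapped within a history. LTP4, a lipid transfer protein, averaged 0.0592 CPM in JA_JA and 0.569 CPM in JA_W, and 3.59 CPM in W_JA and 0.452 CPM in W_W. Its W_JA mean rested on replicate 3, which had 12.5 CPM while the other W_JA libraries had 0.124, 0.651 and 1.11 CPM.

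RD29A, a classical target of abscisic acid (ABA), cold and drought signals, was at 126, 124, 135 and 137 CPM in JA_JA and at 221, 353, 298 and 292 CPM in JA_W, and at 160, 156, 250 and 177 CPM in W_JA and at 103, 96.6, 122 and 116 CPM in W_W. Neither pair overlapped. CYP96A4, the next gene on chromosome 5 with a gap of 1079 bp, averaged 30.2 ± 3.75 CPM in JA_JA and 45.9 ± 6.17 CPM in JA_W, and 28.4 ± 3.02 CPM in W_JA and 18.3 ± 2.15 CPM in W_W (SD, n = 4 each). CYP707A2, an enzyme that breaks down ABA, averaged 2.57 ± 0.811 CPM in JA_JA and 6.79 ± 1.71 CPM in JA_W, and 7.76 ± 2.22 CPM in W_JA and 4.87 ± 1.3 CPM in W_W (SD, n = 4 each), and its W_JA and W_W libraries overlapped. Of 23 ABA, cold and drought genes, 10 rose and 3 fell in W_JA against W_W (median log2 0.40), beside 13.9% and 12.9% of all genes. In JA_JA against JA_W 6 rose and 7 fell (median -0.17), beside 15.4% and 16.5%. RD29A was the list's only member. COR15A rose by 1.89 on the log2 scale in water-history plants (adjusted p = 0.000142) and changed by 0.29 in JA-history plants (adjusted p = 0.454). ERD10, a dehydrin, changed by 0.24 in water-history plants (adjusted p = 0.406) and fell by 1.27 on the log2 scale in JA-history plants (adjusted p = 0.000109).

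FLS1, which makes flavonols, was at 6.48, 7.8, 4.44 and 5.67 CPM in JA_JA and at 11.7, 18.5, 12.8 and 15.2 CPM in JA_W, and at 4.47, 3.61, 4.82 and 3.57 CPM in W_JA and at 1.08, 3.16, 2.59 and 2.24 CPM in W_W, with no overlap in either history. It was the only member among the flavonoid genes. Of the 18 tested, 12 rose and 0 fell in W_JA against W_W, beside 13.9% and 12.9% of all genes. In JA_JA against JA_W 8 rose and 6 fell, beside 15.4% and 16.5%. PDX1L4, AT5G41460, CSLG3, AT2G27420, AT3G24460 and AT4G16563 completed the leading members, with W_JA/W_W between 1.55 (AT2G27420) and 2.74 (AT3G24460) and JA_JA/JA_W between 0.30 (AT2G27420) and 0.646 (AT3G24460).

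Members just inside and outside the thresholds differed little. BBX18, a B-box protein, was inside with W_JA/W_W of 1.5029, and AT3G09540, a pectin lyase-like protein, outside with 1.4964. AT4G30650 was inside with JA_JA/JA_W of 0.6664, and HAI2, an ABA-induced phosphatase, outside with 0.6730. AT1G56120 and AT3G53670 were inside with W_JA/W_W of 0.6695 and 0.6691. The zinc finger gene ZAT12 was outside with W_JA/W_W of 0.6704, and AT3G11402 with JA_JA/JA_W of 1.4850.

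All 96 members passed the edgeR filter. In the 79-gene set 39 members were called lower in W_JA against W_W (background 12.9%), 60 higher in JA_JA against JA_W (15.4%), 36 in both (0.702%) and 67 with a higher interaction (8.01%), which is the log2 JA_JA/JA_W less the log2 W_JA/W_W. In the 17-gene set 16 were called higher in W_JA against W_W (13.9%), 15 lower in JA_JA against JA_W (16.5%), 14 in both (0.968%) and 17 with a lower interaction (10.4%). Between histories, 79 of 79 were called lower in JA_W against W_W (31.1%) and 49 lower and 2 higher in JA_JA against W_JA (21.2% and 18.9%). In the 17-gene set 16 were called higher in JA_W against W_W (33.8%), and 5 higher and 3 lower in JA_JA against W_JA. In the 79-gene set all W_JA libraries lay under all W_W libraries for 49 members (background 19%), all JA_JA libraries lay over all JA_W libraries for 34 (10.9%), and both held for 20 (0.572%). In the 17-gene set all W_JA libraries lay over all W_W libraries for 14 members (8.44%), all JA_JA libraries lay under all JA_W libraries for 17 (28.3%), and both held for 14 (0.814%). The rule used these libraries, so nothing is read from these counts.

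Single libraries weighed on the 79-gene set. The median coefficient of variation between replicates was 35.9% in JA_JA, 33% in JA_W, 21.7% in W_JA and 23.9% in W_W. It was 11.1%, 9.15%, 12.4% and 12.4% for the 16097 genes, which were not matched to the members for level. In the 17-gene set it was 12.2%, 17.7%, 19.9% and 21.8%. JA_JA replicate 4 was the highest of its group in 41 of 79 members, JA_W replicate 1 the highest in 55, JA_W replicate 2 the lowest in 58, and W_W replicate 4 the lowest in 52. With JA_JA replicate 4 left out, 55 of 79 stayed past both folds and 76 kept the direction of JA_JA/JA_W. With JA_W replicate 1 left out 75 stayed, with both left out 69, with JA_W replicate 2 left out 55 and with W_W replicate 4 left out 77. Of the 9 SA members, 6 stayed without JA_JA replicate 4 and 8 without JA_W replicate 1. In the 17-gene set JA_W replicate 2 was the highest of its group in 17 of 17, and 12 stayed past both folds without it, while W_W replicate 1 was the lowest of its group in 11 of 17. When members were chosen anew without JA_W replicate 1, the rule gave 166 genes with the pattern of the 79-gene set.

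**Figure D4:**
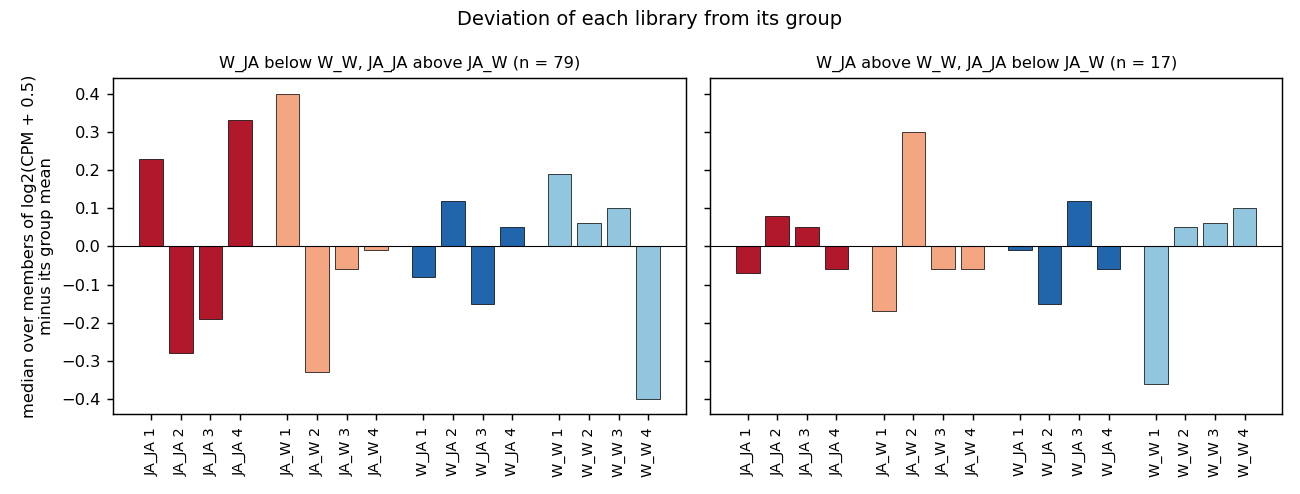
Median over members of the log2 level (CPM + 0.5) of each library minus its group mean, for the 79-gene set (left) and the 17-gene set (right); each bar is 1 library. In the 79-gene set JA_W replicate 1 (0.40) and JA_JA replicate 4 (0.33) stand above their groups and W_W replicate 4 (-0.40) and JA_W replicate 2 (-0.33) below, and in the 17-gene set JA_W replicate 2 (0.30) stands above its group and W_W replicate 1 (-0.36) below.

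Responses were then tested in libraries that had not chosen the genes. The rule was applied to replicates 1 and 2 and the chosen genes were read in replicates 3 and 4 with a new edgeR fit of 8 libraries, and the reading was then exchanged. Of 92 genes chosen in replicates 1 and 2 with the pattern of the 79-gene set, 82 (89.1%) again had a lower level after challenge in water-history plants and a higher one in JA-history plants in replicates 3 and 4, as had 16.8% of all genes at the level filter, and 28 (30.4%) again met the whole rule with its folds. The interaction passed for 16 of the 92 (17.4%), beside 1.01% of all genes called higher. Of 26 genes with the pattern of the 17-gene set, 21 (80.8%) kept the directions, beside 21.3% of all genes, 7 (26.9%) again met the whole rule, and the interaction passed for 9 (34.6%), beside 0.52% called lower. Of the 92, 16 were called lower in W_JA against W_W (background 4.92%), 23 higher in JA_JA against JA_W (7.76%) and 10 in both (0.14%). Of the 26, 12 were called higher in W_JA against W_W (5.81%), 11 lower in JA_JA against JA_W (5.4%) and 6 in both (0.0727%). Between histories, 90 of the 92 were called lower in JA_W against W_W (22.3%) and 35 lower in JA_JA against W_JA (7.5%), and 25 of the 26 were called higher in JA_W against W_W (21.2%) and 9 higher in JA_JA against W_JA (4.31%).

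The reverse reading gave a weaker return for the larger set. Of 135 genes chosen in replicates 3 and 4, 62 (45.9%) kept the directions in replicates 1 and 2, beside 23.5% of all genes, and 28 (20.7%) again met the whole rule. Their median log2 response in replicates 1 and 2 was -1.11 in water-history plants and -0.06 in JA-history plants, where JA_W replicate 1, the high library, is 1 of the 2 JA_W libraries read; its part in the result was not tested. Of the 135, 8 were called lower in W_JA against W_W (background 3.58%), 22 higher in JA_JA against JA_W (6.96%) and 3 in both (0.0567%), and the interaction passed for 11 (8.15%, background 0.273%). Between histories, 117 were called lower in JA_W than in W_W (background 25.9%) and 52 lower in JA_JA than in W_JA (10.8%). Of 24 genes with the pattern of the 17-gene set, 20 (83.3%) kept the directions, beside 15.2%, 7 (29.2%) again met the whole rule, and the interaction passed for 5 (20.8%, background 0.304%). Of the 24, 6 were called higher in W_JA against W_W (4.61%), 12 lower in JA_JA against JA_W (6.17%) and 4 in both (0.067%), and 18 were higher in JA_W against W_W (23.6%) and 2 higher in JA_JA against W_JA (6.77%).

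**Figure D5:**
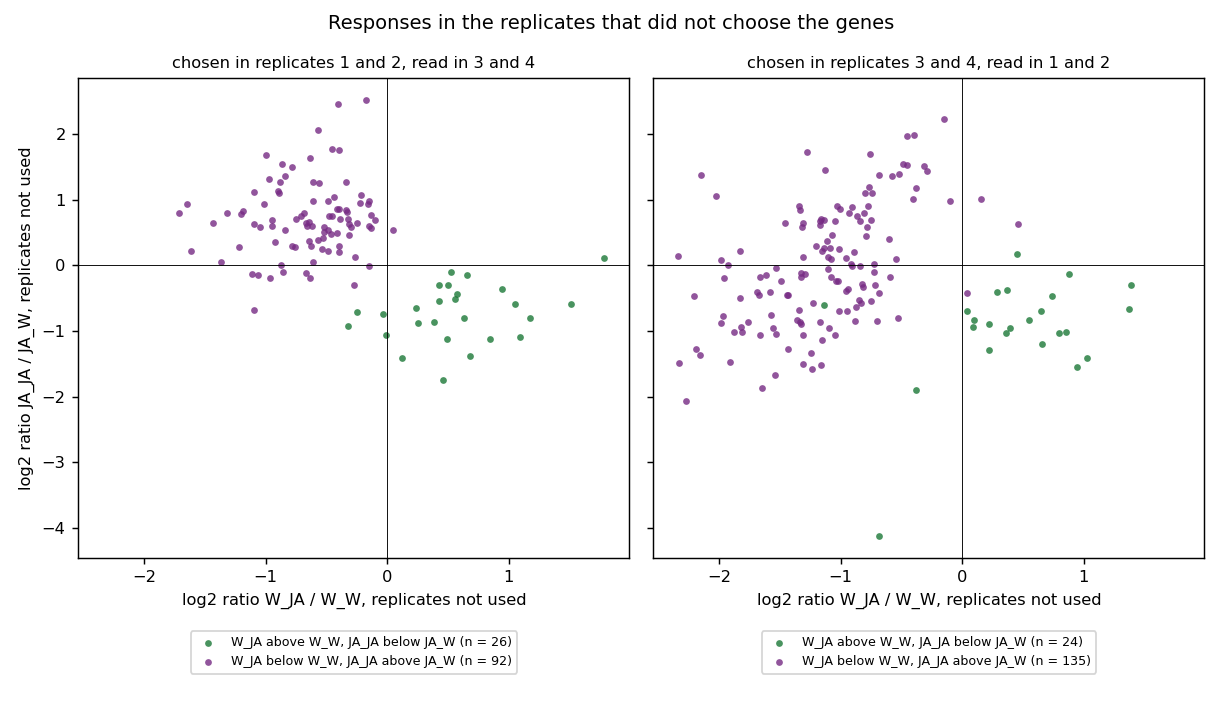
Log2 challenge responses in the 2 replicates per group that did not choose the genes, in water-history plants (x axis) and JA-history plants (y axis); each point is 1 chosen gene. Of the purple genes 82 of 92 lie in the upper left on the left side, against 62 of 135 on the right side, and of the green genes 21 of 26 and 20 of 24 lie in the lower right.

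AT4G34550 passed in both readings. In replicates 3 and 4 it rose by 1.32 ± 0.22 (log2 ± SE) in water-history plants (adjusted p = 0.00658, edgeR) and fell by 1.04 ± 0.21 on the log2 scale in JA-history plants (adjusted p = 0.0117), with an interaction of -2.35 ± 0.31 (adjusted p = 0.0119). In replicates 1 and 2 its interaction was -2.78 ± 0.39 (adjusted p = 0.0265). AT4G36010 had an interaction of -2.0 ± 0.21 in replicates 3 and 4 (adjusted p = 0.00602) and of -2.64 ± 0.35 in replicates 1 and 2 (adjusted p = 0.0306). In the other direction AT4G27450 fell by 0.81 ± 0.20 on the log2 scale in water-history plants (adjusted p = 0.0346) and rose by 1.89 ± 0.24 in JA-history plants (adjusted p = 0.00103) in replicates 3 and 4, with an interaction of 2.70 ± 0.31 (adjusted p = 0.00809).

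Among the other leading genes of these readings, NIMIN1 in replicates 3 and 4 fell by 1.78 ± 0.43 on the log2 scale in water-history plants (adjusted p = 0.037), while its JA-history change of 1.87 ± 0.74 (adjusted p = 0.144) and its interaction of 3.65 ± 0.85 (adjusted p = 0.0786) did not pass. In replicates 1 and 2, where its rank among the chosen genes was lower, NIMIN1 had an interaction of 5.64 ± 0.42 (adjusted p = 0.00204) and NIMIN2 of 3.67 ± 0.48 (adjusted p = 0.0265). The interactions of TIN1 (2.44 ± 0.60), NIMIN2 (3.26 ± 1.07), AT2G27420 (-2.28 ± 0.77) and AT4G16563 (-1.75 ± 0.37) did not pass in replicates 3 and 4 (adjusted p from 0.0546 to 0.18). Nor did those of CYP707A2, LTP4, WRKY40, AT3G23550, UGT76B1 and the non-members CGA1 and AOX1D in replicates 1 and 2 (adjusted p from 0.0588 to 0.999). Picked after their values were seen, WRKY18 (2.42 ± 0.27, adjusted p = 0.00809), NAP (2.24 ± 0.26, adjusted p = 0.00809), NPR3 (1.55 ± 0.27, adjusted p = 0.0307), TPS11 (1.67 ± 0.19, adjusted p = 0.00809), FLS1 (-2.22 ± 0.31, adjusted p = 0.0147) and RD29A (-1.92 ± 0.25, adjusted p = 0.0119) had interactions in replicates 3 and 4 that passed. Their passing was known when they were picked, so these values are a description only. In that reading 16 of 92 and 9 of 26 chosen genes passed. In the reverse reading, in replicates 1 and 2, 11 of 135 and 5 of 24 passed. WRKY18, NAP, TPS11, FLS1, RD29A and AT4G27450 were also chosen for the reverse reading and kept both directions there. Whether their interactions passed in replicates 1 and 2 is not given here. The interactions of BIP2 (1.34 in replicates 3 and 4 and 1.76 in replicates 1 and 2), BIP1 (1.14) and ERDJ3B (1.06) did not pass (edgeR, adjusted p from 0.137 to 0.32).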

How the data were processed

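Leaf poly(A) RNA gave 16 libraries of single-end 50 bp reads, 4 in each of 4 groups. Each library has 1 deposited table with raw read counts per gene and with CPM, the count over the library total times 1000000. The counts and CPM were made by the authors with Trimmomatic 0.38, STAR 2.6.1b and HTSeq 0.9.1 on TAIR10, per the submitters' processing notes; settings and the strandedness of counting are not given in the sources used here, so reads of overlapping genes cannot be told apart. CPM recomputed from the deposited counts differed by at most 5.09e-11. Per the labels the replicates are biological, with no statement of separate sowings, so p-values measure the spread between these samples; no pair of replicates agreed within counting noise.

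Members were chosen by group means of the deposited CPM. The rule, the members and the gene lists were chosen with earlier results of these data known. Counts were tested with the edgeR 4.0.16 quasi-likelihood F-test (R 4.3.3): filterByExpr by group kept 19224 genes and removed 15038, TMM factors ran from 0.888 to 1.14, 1 mean was fitted per group with 12 residual degrees of freedom, and p-values were adjusted by Benjamini-Hochberg over all tested genes with a threshold of 0.05. For the members this fit is a description. Held-out tests refitted edgeR to 8 libraries. The fit was tested on simulated data. Alternatives were DESeq2 1.42.0, other scalings, no low-count filter, other offsets, folds and floors, medians, a replicate block and each library left out; library totals only, the floor on the mean plus 0.5, and the members' values without JA_W replicate 1, JA_JA replicate 4, both, W_W replicate 4 or JA_W replicate 2 were added after seeing the data. Named genes were taken from the 12 members of each set with the largest smaller response and from members in a list or family. The 4 leading genes of each pair of replicates and direction and the 2 nearest to each threshold were added. Not all of these are printed. The listed non-members GRXS13, EDS5, WRKY53, ICS1, PR1, BIP3, COR15A and ERD10 were picked by no set rule. Others are said to be chosen after their values were seen. Names, gene positions and promoters come from RefSeq TAIR10.1, matched by locus for 32548 identifiers, since the deposited tables hold no coordinates.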

Additional observations from a re-analysis of the deposited data

Results flagged for a closer look

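Of 204 groups of 4 replicates (51 named members in 4 groups), 16 (7.84%) had a highest or lowest replicate apart from the other 3. Chance gives such a gap in about 1 of 20 groups of independent, normally distributed values. The members share libraries and were chosen by the rule, so the 2 shares cannot be compared as a test. JA_W replicate 1 was high for WRKY40 (14.6 CPM, others 1.66 to 3.33), DTX1 (23.6 CPM, others 1.46 to 3.56), GSTU4 (24.1 CPM, others 2.1 to 3.56), WRKY18 (9.52 CPM, others 5.04 to 5.54), UGT73B4 (7.36 CPM, others 0.466 to 1.17), RLP9 (0.759 CPM, others 0.291 to 0.321) and GSTU8 (1.17 CPM, others 0.146 to 0.292), and low for ERDJ3B (39 CPM, others 45.1 to 45.9). JA_JA replicate 4 was high for UGT74F2 (163 CPM, others 76.7 to 87.6) and UGT73B4 (10.3 CPM, others 1.58 to 2.83). JA_W replicate 2 was high for AT4G36010 (45 CPM, others 32 to 32.7), and JA_JA replicate 2 was high for CYP707A2 (3.77 CPM, others 2.05 to 2.33). W_JA replicate 3 was high for LTP4 (12.5 CPM, others 0.124 to 1.11) and W_JA replicate 1 low for UGT74F2 (81.3 CPM, others 122 to 129). W_W replicate 1 was high for AT4G27450 (66.3 CPM, others 29.1 to 30) and W_W replicate 2 low for CYP96A4 (15.1 CPM, others 19.2 to 19.6).

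The challenge effect differed between histories in libraries that had not chosen the gene (edgeR interaction, log2 ± SE, adjusted over all tested genes) for 3 leading genes. AT4G34550 had -2.35 ± 0.31 in replicates 3 and 4 (adjusted p = 0.0119) and -2.78 ± 0.39 in replicates 1 and 2 (adjusted p = 0.0265). AT4G36010 had -2.0 ± 0.21 (adjusted p = 0.00602) and AT4G27450 had 2.7 ± 0.31 (adjusted p = 0.00809), both in replicates 3 and 4.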

How the results depend on the processing

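The 17-gene set became 7 genes with an offset of 2 CPM, 2 at folds of 2 and 0.5, and 11 with medians of replicates; the 79-gene set became 38, 4 and 128. With TMM-scaled CPM there were 17 genes (12 shared) and 66 (54 shared), and a floor on the mean plus 0.5 left both counts as they were. Leaving out each library gave 12 to 21 and 55 to 166 genes, the 166 without JA_W replicate 1. The replicate numbers did not pair the samples (correlations of deviations from -0.332 to 0.339); with a replicate block the sets held 19 (16 shared) and 81 (69 shared).

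Calls of members stayed within 1.5 times except in JA_JA against W_JA for the 17-gene set. There, 3 were higher and 5 lower with library totals only, and 3 were higher without W_JA replicate 2, W_JA replicate 4 or JA_JA replicate 2. Without single libraries the 17-gene set had 14 to 16 called higher in W_JA against W_W, 11 to 16 lower in JA_JA against JA_W, 16 to 17 lower interactions, 15 to 16 higher in JA_W against W_W, and 3 to 7 higher and 3 to 4 lower in JA_JA against W_JA. The 79-gene set had 27 to 49, 47 to 68 and 61 to 74 for the challenges and the interaction, and 79 and 45 to 55 lower between histories.

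Held-out counts depended on the setting. The share of all genes that passed under each setting is not given here, nor is the number chosen at other folds. The counts therefore show only how far the reading moved. Read in replicates 3 and 4, the interaction passed for 17 (DESeq2), 14 (library totals) and 14 (no filter) genes of the smaller pattern, and for 39 (DESeq2) of the larger, whose JA-history response passed for 39. Read in replicates 1 and 2 it passed for 16 (DESeq2) and 9 (no filter) of the smaller pattern, and for 40 (DESeq2), 17 (no filter), 7 (library totals) and 19 (replicate block) of the larger; the water-history response passed for 29 of the larger with DESeq2 and 3 of the smaller with library totals. Chosen at folds of 2 and 0.5, the counts for water history, JA history and interaction were 1, 1 and 1 (smaller) and 2, 1 and 1 (larger) in replicates 3 and 4, and 1, 3 and 1 (smaller) and 0, 3 and 1 (larger) in replicates 1 and 2. Without single libraries they ran over 3 to 12, 4 to 12 and 0 to 13 (smaller) and 7 to 21, 6 to 34 and 1 to 35 (larger) in replicates 3 and 4, and over 0 to 7, 1 to 12 and 0 to 11 (smaller) and 3 to 52, 9 to 38 and 1 to 54 (larger) in replicates 1 and 2, where a lone library is taken to vary like the other groups.

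The held-out interaction of AOX1D, 0.01, ran from -0.89 to 2.66 without single libraries and was -0.31, -0.44, -0.89 and -0.15 without W_W replicate 2, W_JA replicate 1, JA_W replicate 2 and JA_JA replicate 2. Without JA_JA replicate 4, log2 JA_JA/JA_W was -0.26 for UGT76B1 and -0.17 for UGT73B4, which had 1.79 without JA_W replicate 1. The cause was not tested. Genes near the floor rest on few reads in the low groups, and 2 replicates per group limit each held-out test.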

Other observations

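Families were matched by name or description. The 79-gene set held 2 of 30 matched glutathione transferases at the level filter (GSTU4 and GSTU8, 6.67%), beside 0.491% of all genes. It held 2 of 25 matched UDP-glycosyltransferases (UGT73B4 and UGT74F2, 8%). The match left out the members GSTL1, UGT76B1 and UGT85A1, so these shares cover only part of each family. The MATE transporters DTX1 and AT3G23550 were also members. GSTU4 was at 15.9, 9.47, 13.9 and 38 CPM in JA_JA and at 24.1, 2.1, 2.91 and 3.56 CPM in JA_W, and at 30.8, 66.4, 48.7 and 57.4 CPM in W_JA and at 77.6, 137, 104 and 54.1 CPM in W_W. DTX1 was at 7.91, 5.46, 14.3 and 30.2 CPM in JA_JA and at 23.6, 1.46, 1.92 and 3.56 CPM in JA_W, and at 14.6, 17.8, 23.1 and 20.7 CPM in W_JA and at 24.9, 58.6, 41.7 and 28.9 CPM in W_W. In both genes JA_JA replicate 4 and JA_W replicate 1 were the highest of their groups, and the JA-history groups overlapped. The water-history groups were apart for DTX1, while W_W replicate 4 of GSTU4 lay within the W_JA range. Of 37 tested glutathione transferases in that family list, 6 rose and 10 fell in W_JA against W_W (edgeR), beside 13.9% and 12.9% of all genes. In JA_JA against JA_W 8 rose and 0 fell, beside 15.4% and 16.5%. The median annotated gene length was 1875 bp in the 79-gene set and 1774 bp in the 17-gene set, beside 2524 bp over the genes at the level filter.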
